A study of Mus musculus with 4 samples.

Results

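The genes described here make, load or switch on MHC class I, the surface molecule that shows peptides from inside the cell to T cells and NK cells. They are H2-K1, H2-D1, B2m, Tap1, Tap2, Tapbp, Psmb8, Psmb9 and Nlrc5. They were found by symbol in the feature lists of all 4 libraries and are 9 of the 31914 features in these lists. Single-cell RNA-seq was made from C57BL/6J mouse embryos with no engineered allele or treatment named. The groups are the embryonic periphery at E14.5, the embryonic periphery at E13.5, the fetal liver at E14.5 and the fetal liver at E13.5, with 1 library each. Cells were enriched on CD45 beads and sorted as live CD45+ F4/80- IL7Rα+ cells, and the number of embryos pooled per library is not given in the sources used here. The periphery was prepared with version 2 and the fetal liver with version 3 of the droplet 3' kit, so tissue and kit cannot be told apart in any value that sets the tissues side by side.

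MHC class I is a heavy chain, here the product of H2-K1 or H2-D1, joined to β2-microglobulin, the product of B2m. Its peptides are cut in the cytosol by proteasomes, among them the immunoproteasome with the subunits made by Psmb8 and Psmb9. The Tap1 and Tap2 products pump the peptides into the endoplasmic reticulum, and tapasin, the product of Tapbp, holds the empty heavy chain at this pump. Nlrc5 encodes a transactivator that works through factors bound at class I promoters, and interferon gamma raises the whole set, in part through the transcription factor Irf1. Class I is known to be low in the early mouse embryo. Lymphoid tissue inducer (LTi) cells, the subject of the study, are innate lymphoid cells that start the formation of lymph nodes and Peyer's patches.

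Of the 9 genes, 7 lie on chromosome 17 in the annotation of the genome build GRCm38, and 4 of them form one block. Psmb9, Tap1, Psmb8 and Tap2 stand together at chr17:34181987-34216321, a stretch of 34335 bases. Tapbp lies at chr17:33915899-33929292 and H2-K1 at chr17:33996017-34000347, on the other side of the block from H2-D1 at chr17:35262730-35267499. B2m is on chromosome 2 at chr2:122147686-122153083, and Nlrc5 is on chromosome 8 at chr8:94434356-94527272. The promoter table from RefSeq (GRCm38.p6) held 7 of the 9 genes, and Tap2 and Nlrc5 were not matched.

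The promoters of the heavy chains and of B2m are shown because their levels went together across cell classes, H2-K1 and H2-D1 being the most alike pair of the set, and Psmb8 is shown because it followed another pattern. Each line gives the 250 bases before the start annotated by RefSeq, on the strand of the gene. Capitals mark matches on either strand to TGACG (the core of a cyclic AMP response element), CCAAT (the core of the Y box, read as ATTGG on the other strand), GAAA followed by any 2 bases and GAAA (an interferon-stimulated response element) and TTCNNNGAA (a gamma-activated site).
H2-K1, chr17:34000348-34000597, minus strand: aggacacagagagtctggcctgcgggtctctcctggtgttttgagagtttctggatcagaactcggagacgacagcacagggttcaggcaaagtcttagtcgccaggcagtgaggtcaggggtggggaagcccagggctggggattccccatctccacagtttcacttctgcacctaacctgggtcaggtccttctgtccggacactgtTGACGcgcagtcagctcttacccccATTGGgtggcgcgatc
H2-D1, chr17:35262844-35263093, plus strand: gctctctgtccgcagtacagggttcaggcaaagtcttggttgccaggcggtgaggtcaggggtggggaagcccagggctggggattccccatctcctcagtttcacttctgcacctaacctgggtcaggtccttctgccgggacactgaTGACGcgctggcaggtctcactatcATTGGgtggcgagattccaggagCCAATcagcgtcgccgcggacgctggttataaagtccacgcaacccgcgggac
B2m, chr2:122147437-122147686, plus strand: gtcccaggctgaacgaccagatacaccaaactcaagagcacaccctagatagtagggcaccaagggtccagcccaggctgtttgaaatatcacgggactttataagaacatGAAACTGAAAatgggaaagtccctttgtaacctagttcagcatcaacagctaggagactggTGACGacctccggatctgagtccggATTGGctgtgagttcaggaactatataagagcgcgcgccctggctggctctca
Psmb8, chr17:34197945-34198194, plus strand: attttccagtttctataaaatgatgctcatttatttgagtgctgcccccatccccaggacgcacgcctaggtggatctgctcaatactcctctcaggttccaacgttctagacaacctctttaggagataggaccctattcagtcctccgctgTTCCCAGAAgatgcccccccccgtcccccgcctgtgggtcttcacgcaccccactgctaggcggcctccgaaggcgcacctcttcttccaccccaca

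In H2-K1, H2-D1 and B2m the letters TGACG were followed by ATTGG starting 25 bases further on. This pair at this spacing stood in 3 of the 7 matched genes and in 26 of 27025 mouse promoters of the table (0.0962%), counted over windows of 300 bases that run 50 bases past the start. Of the other listed class I genes, H2-M3 also held it. The spacing was chosen after the matches had been seen. The H2-K1 and H2-D1 windows were 88.3% identical over 239 aligned bases. The B2m window held the interferon-stimulated letters, found in 3.49% of all windows. The Psmb8 window held the gamma-activated letters, which read the same on both strands and were found in 8.47% of all windows. Only these exact letters were searched. A window with no capitals for an element, such as those of H2-K1 and H2-D1 for the interferon-stimulated one, may still hold a variant of it. TGACG alone stood in 21.0% and CCAAT alone in 37.9% of all windows, and matches to different letter strings do not overlap in the lines above. Tap1 and Psmb9 face away from each other, and their windows share 275 of 300 bases.

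The libraries held 4360 kept cells in the periphery at E14.5, 4165 in the periphery at E13.5, 10809 in the fetal liver at E14.5 and 10259 in the fetal liver at E13.5. Levels are given as UMIs of a gene per 1000000 UMIs summed over cells (CPM). The summed UMIs ranged from 42351970 in the periphery at E14.5 to 198061625 in the fetal liver at E13.5, and median UMIs per cell from 8528.5 to 18448. UMIs are tags at the 3' end that are not divided by length, so levels are compared between cells and libraries and not between genes. The library pairs of 1 tissue shared 33 barcodes in the periphery and 29 in the fetal liver. Of the kept cells, 58.6% of the periphery at E14.5 and 37.0% at E13.5 fell in clusters that met the LTi markers ("LTi-like"), against 2.09% and 3.60% in the fetal liver. The periphery shares depend on the clustering. They were 74.8% and 35.7% with another random seed and 67.6% and 23.9% at clustering resolution 2. Every group is 1 library, so no difference below has a replicate check and no test was made. Intervals are exact 95% Poisson intervals that cover counting error only.

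The heavy chains set the pattern over the whole libraries. H2-K1 stood at 327 CPM in the periphery at E14.5 and 272 CPM at E13.5, and at 140.4 CPM in the fetal liver at E14.5 and 127 CPM at E13.5. H2-D1 stood at 719 CPM in the periphery at E14.5 and 459 CPM at E13.5, and at 157 CPM in the fetal liver at E14.5 and 121 CPM at E13.5. Both periphery values of each heavy chain lay above both fetal liver values. The light chain B2m followed the same order, with 2253 CPM in the periphery at E14.5 and 1494 CPM at E13.5, and 452 and 449.5 CPM in the fetal liver at E14.5 and E13.5.

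The peptide pump did not separate the tissues as widely. Tap1 stood at 38.7 CPM in the periphery at E14.5 and 26.5 CPM at E13.5, and at 29.6 and 28.4 CPM in the fetal liver at E14.5 and E13.5. Tap2 stood at 73.1 and 43.2 CPM in the periphery and at 54.1 and 49.4 CPM in the fetal liver, in the same order of stages. For both genes the periphery at E13.5 was the lowest of the 4 libraries and the periphery at E14.5 the highest. Tapbp, by contrast, had 137 and 90.9 CPM in the periphery against 47.4 and 45.7 CPM in the fetal liver.

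Of the immunoproteasome subunits, Psmb8 stood at 615 CPM in the periphery at E14.5 and 576 CPM at E13.5, against 312 and 306 CPM in the fetal liver. Psmb9 was nearly level, with 75.3 and 90.7 CPM in the periphery at E14.5 and E13.5, and 87.3 and 87.0 CPM in the fetal liver. Nlrc5 was close to the limit of detection, with 26 UMIs in the periphery at E14.5, 24 at E13.5, 64 in the fetal liver at E14.5 and 13 at E13.5. It stayed under the 10 CPM asked of a gene before a whole-library fold was counted, so 8 of the 9 genes were measured there.

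**Figure D1:**
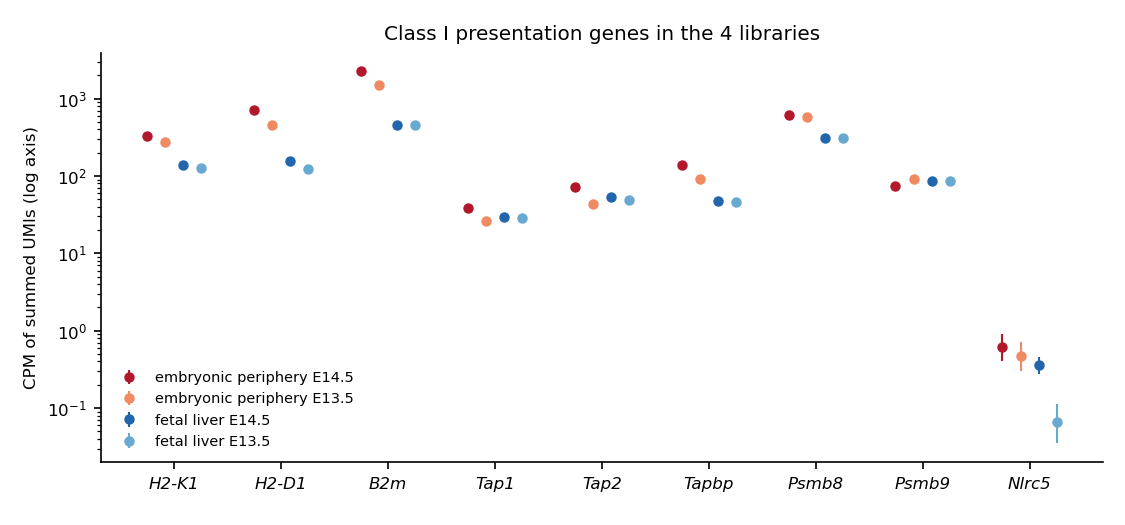
CPM of each gene (log axis) in the 4 libraries, with exact 95% Poisson intervals. H2-K1, H2-D1, B2m, Tapbp and Psmb8 lie higher in both periphery libraries than in both fetal liver libraries, and Nlrc5 lies under 1 CPM in all 4.

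To see which cells held these levels, the cells of each tissue were clustered without the 9 genes and the other listed genes, and clusters were named from markers of each cell type. In each tissue 1 small cluster stood highest for the summed CPM of H2-K1, H2-D1 and B2m. In the periphery it was cluster P11, with 155 cells at E14.5 and 97 at E13.5, led by AW112010, Serpina3f, Gbp2, Ly6a, Cxcl10, Iigp1 and Igtp. Gbp2, Iigp1 and Igtp encode GTPases induced by interferon gamma, and this cluster met the markers of no cell type. In the fetal liver it was cluster FL16, with 291 cells at E14.5 and 125 at E13.5, led by Ccl5, Cxcl10, Arg1, Tnfrsf9 and Cd3g, with Cxcr6, Trbc1 and Ifng among the next. FL16 had 8 of 12 T cell markers and 8 of 12 group 1 innate lymphoid or NK cell markers detected, so it is called by its number. Both clusters also came first at clustering resolution 2 and with the listed genes kept. With another random seed P11 was not separate. A cluster led by AW112010, Gm4208, Ccl5, Klrd1 and Ifng then came first in the periphery at E14.5 (5844 CPM). It came second at E13.5 (3044 CPM, after 3121 CPM). This cluster, with 275 cells at E14.5 and 415 at E13.5, met the markers of group 1 innate lymphoid or NK cells. With that seed the cluster like FL16 came first at E14.5 (3378 CPM) and second at E13.5 (1553 CPM, after 1604 CPM).

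In cluster P11, H2-K1 stood at 1446 CPM at E14.5 and 955 CPM at E13.5, H2-D1 at 2350.1 and 1303 CPM, and B2m at 6014 and 3618 CPM. The sum of the 3 genes came to 9809.7 CPM at E14.5 (95% interval 9649.9 to 9971.5) and 5876 CPM at E13.5. Among classes and unnamed clusters, the next highest sum was 4089 CPM in monocyte or macrophage-like cells at E14.5 and 2835 CPM in LTi-like cells at E13.5. The P11 cells were also first for Tap1 (157 and 135 CPM), Tapbp (325 and 227 CPM), Psmb8 (1170.3 and 1124 CPM) and Psmb9 (245 and 246 CPM). Tap2 was first in P11 at E14.5 only (136 CPM), and at E13.5 its 60.7 CPM lay under the erythroid-like class, with intervals that overlap.

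In cluster FL16, H2-K1 stood at 1114.5 CPM at E14.5 and 482 CPM at E13.5, and H2-D1 at 989.6 and 463 CPM. B2m stood there at 1470.1 and 772 CPM, so that the sum reached 3574 CPM at E14.5 against 1717 CPM at E13.5. Over the other classes of 50 cells or more in the fetal liver this sum had its highest value at 1639.6 CPM at E14.5 and 1604 CPM at E13.5. FL16 was also first for Tap1 (138 and 86.5 CPM), Tap2 (119 and 83.0 CPM), Tapbp (193 and 139.5 CPM) and Psmb8 (689 and 446 CPM). Psmb9 stood at 187 CPM in FL16 at E14.5, again first, and at 112 CPM at E13.5, under the 130.1 CPM of plasmacytoid-primed-like cells. H2-D1 was the other gene for which FL16 came second at E13.5, after 610.1 CPM in mast cell or basophil-like cells.

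FL16 and P11 held a larger share of the Nlrc5 UMIs than of the cells. FL16 held 34 of the 64 UMIs of the fetal liver at E14.5 (53.1%) in 2.69% of the kept cells, and 6 of the 13 UMIs at E13.5 (46.2%) in 1.22% of the cells. P11 held 7 of 26 UMIs (26.9%) at E14.5 in 3.56% of the cells and 9 of 24 (37.5%) at E13.5 in 2.33% of the cells. The level was 10.1 CPM in FL16 at E14.5 (95% interval 6.97 to 14.1) and 3.53 CPM at E13.5 (1.30 to 7.69). In the periphery, group 1 innate lymphoid or NK-like cells held nearly as many as P11, with 6 of 26 UMIs (23.1%) in 4.54% of the cells at E14.5 and 8 of 24 (33.3%) in 11.7% at E13.5. Monocyte or macrophage-like cells had 2 UMIs at E14.5, or 3.29 CPM, with an interval (0.399 to 11.9) that overlaps that of the 4.78 CPM in P11 (1.92 to 9.85). No other fetal liver class passed 1 CPM among those of at least 50 cells. LTi-like cells of the periphery had 6 Nlrc5 UMIs in 2554 cells at E14.5 and 3 in 1540 cells at E13.5.

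**Figure D2:**
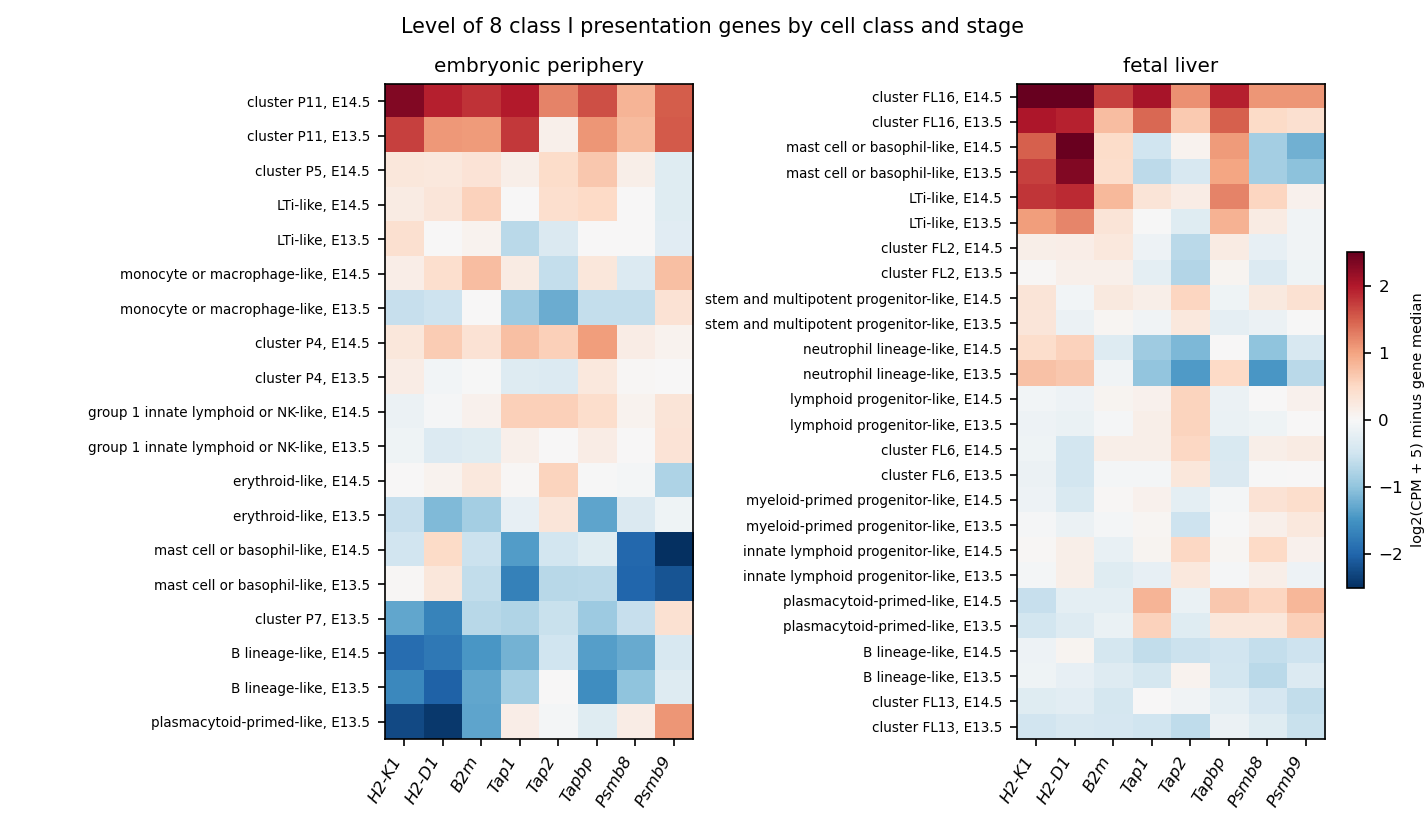
Level of the 8 genes in every class or unnamed cluster of at least 50 cells, by stage, as log2(CPM + 5) minus the median of the gene over the classes shown for that tissue; the colours saturate at 2.5. P11 and FL16 are high for nearly all genes, while mast cell or basophil-like cells of the fetal liver are high for H2-D1 and low for Psmb9.

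LTi-like cells of the periphery had the third highest sum of the 9 classes at E14.5 (3646 CPM) and the second highest of the 10 at E13.5. H2-K1 stood there at 329.7 CPM at E14.5 and 382 CPM at E13.5, and H2-D1 at 758 and 611 CPM. B2m stood at 2558 and 1842 CPM, Psmb8 at 652 and 656 CPM and Psmb9 at 66.2 and 67.1 CPM. Against all other kept cells of the same library, a difference is given as a log2 fold of CPM + 5 with the median over all genes taken off, and 0.5 is the size counted. At E14.5, 0 of 8 genes passed it in either direction (7.91% of all measured genes did so upward and 9.38% downward), with B2m highest at 0.39 and Psmb9 lowest at -0.42. At E13.5, 2 of 8 were higher in LTi-like cells (8.32% of all genes), namely H2-K1 at 382 CPM against 219 CPM in the other cells (0.76) and H2-D1 at 611 against 386 CPM (0.63). Psmb9 was lower at E13.5, at 67.1 against 102 CPM (-0.60), as were 10.3% of all genes. The interferon response list, 18 genes such as Isg15 and Irgm1, had 9 of 13 measured genes lower in LTi-like cells at E14.5 (median -1.12) and 12 of 13 at E13.5 (median -1.08), beside the same shares of all genes.

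Some classes were high for H2-D1 and low for Psmb9, and others the reverse. Mast cell or basophil-like cells of the fetal liver had H2-D1 at 679 CPM at E14.5 and 610.1 CPM at E13.5, but Psmb9 at only 34.1 and 38.7 CPM, the lowest of 13 classes at both stages. In the periphery the same class, with 67 cells at E14.5 and 58 at E13.5, had H2-D1 at 852 and 740.2 CPM. Psmb9 stood there at 6.79 and 14.6 CPM, from only 7 and 15 UMIs. H2-K1 was not high in this class in the periphery at E14.5, where only B lineage-like cells lay lower. Plasmacytoid-primed-like cells, early cells of the interferon-producing dendritic lineage, lay at the other end. They had H2-K1 at 75.0 and 81.4 CPM in the fetal liver at E14.5 and E13.5 and 55.9 CPM in the periphery at E13.5, while Psmb9 stood at 153, 130.1 and 182 CPM.

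As a ratio, H2-K1 plus H2-D1 over Tap1 plus Psmb9 came to 60.5 and 46.2 in mast cell or basophil-like cells of the periphery at E14.5 and E13.5, and 18.9 and 18.0 in those of the fetal liver. The 2 periphery ratios are imprecise, since they rest on 11 Tap1 and 7 Psmb9 UMIs at E14.5 and 8 and 15 at E13.5. In plasmacytoid-primed-like cells the ratio was 0.834 and 0.996 in the fetal liver and 0.742 in the periphery at E13.5. LTi-like cells had 10.6 and 11.3 in the periphery and 6.60 and 4.87 in the fetal liver. These 3 classes keep their order in every library that holds them. B lineage-like cells were low for both sides, with H2-K1 at 72.6 and 90.4 CPM and Tap1 at 13.3 and 17.7 CPM in the periphery at E14.5 and E13.5.

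**Figure D3:**
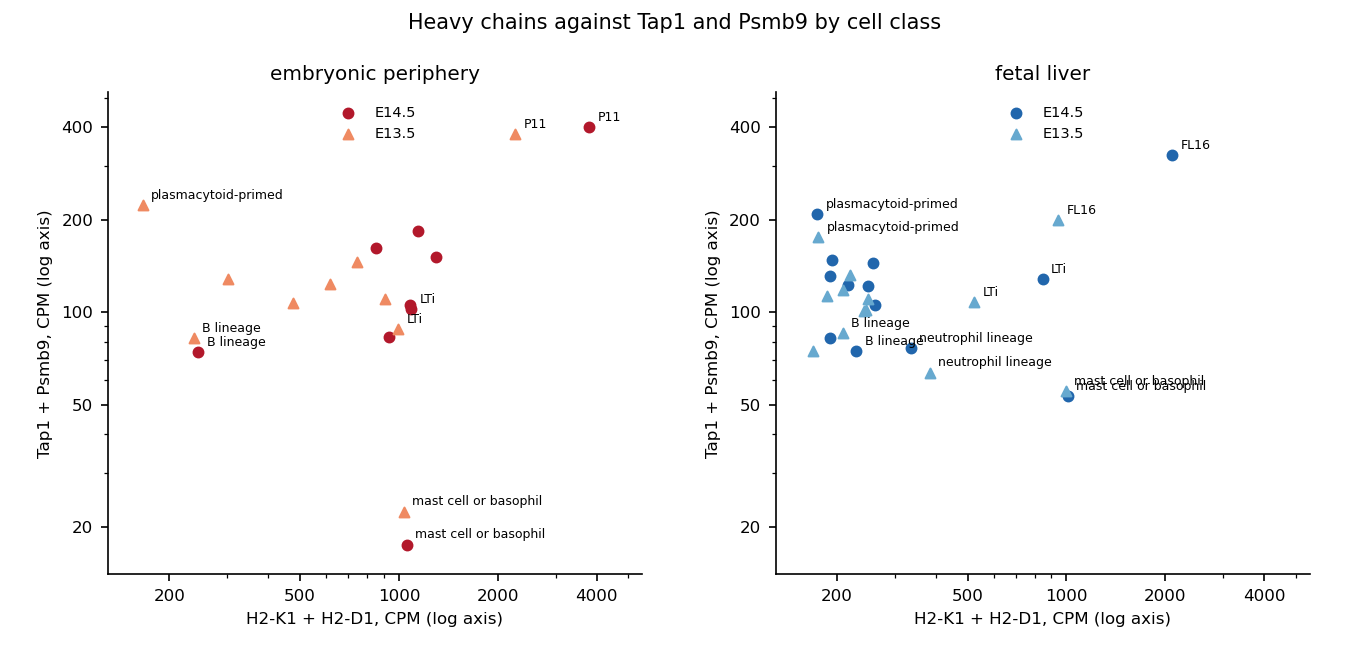
Summed CPM of H2-K1 and H2-D1 (horizontal, log axis) against summed CPM of Tap1 and Psmb9 (vertical, log axis), one point per class and stage. P11 and FL16 are high on both axes, mast cell or basophil-like cells lie to the lower right and plasmacytoid-primed-like cells to the upper left.

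Over the class and cluster sums of a tissue, the heavy chains went with each other, with B2m and with Tapbp, and least with Psmb9. H2-K1 and H2-D1 had a Pearson r of 0.94 over 22 sums of the periphery and 0.95 over 34 sums of the fetal liver, on the log2(CPM + 5) scale. H2-K1 and B2m had 0.92 and 0.89, and H2-K1 and Tapbp 0.81 and 0.85. Tap1 and Psmb8, which are neighbours in the chromosome 17 block, had 0.87 and 0.86. Tap2, in the same block, had less, with 0.61 and 0.61 to Psmb8 and 0.28 and 0.46 to Psmb9. Tap1 stood between, with 0.62 and 0.43 to H2-K1, 0.50 and 0.31 to H2-D1, and 0.74 and 0.81 to Psmb9. H2-K1 and Psmb9 had 0.20 and 0.05, and H2-D1 and Psmb9 had -0.02 and -0.13, the lowest of the 36 pairs in each tissue. When the sums of P11 and FL16 were left out, H2-D1 and Psmb9 had -0.39 and -0.54, and H2-K1 and Tap1 had 0.28 and -0.24. Sums from 1 library share its depth, so these values are descriptions.

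The genes whose profile was most like the mean profile of the set differed between tissues. In the fetal liver they included Irf1 (r of 0.86 over 34 sums), Chmp1b (0.85), Icam1 (0.81) and Idnk (0.80), among 5571 genes considered. Without the FL16 sums these genes had 0.58, 0.70, 0.68 and 0.53. In the periphery they were Igtp (0.92 over 22 sums), Il12rb1 (0.90), Rtn4 (0.89), Krt83 (0.89) and Nmi (0.89) among 4620 genes, and 0.85 to 0.88 without the P11 sums. The fetal liver likeness thus rested in part on 1 cluster, and the periphery likeness did so less.

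Cells of these clusters were not alike. With every cell thinned to 4000 UMIs, the 3 genes H2-K1, H2-D1 and B2m together gave a median of 9 UMIs in FL16 cells at E14.5 (quartiles 4 and 27) and 5 at E13.5 (quartiles 3 and 8). The medians over all kept cells were 3 and 3 in the fetal liver and 13 and 8 in the periphery. P11 cells had a median of 42 at E14.5 (quartiles 22.25 and 56.5) and 21 at E13.5 (quartiles 12 and 37). LTi-like cells of the periphery had a narrow range, with a median of 14 (quartiles 11 and 18) at E14.5 and 11 (quartiles 8 and 14) at E13.5. Thinning left out 19 and 5 cells of FL16 and 9 and 3 cells of P11, and without it the medians were 25 and 14 UMIs in FL16 and 90 and 61 in P11.

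Ifng, which encodes interferon gamma, was read in part of the same cells. At 4000 UMIs, 87 of 272 FL16 cells at E14.5 had an Ifng UMI (32.0%, exact binomial interval 26.5 to 37.9%), against 12 of 120 at E13.5 (10.0%, 5.27 to 16.8%). LTi-like cells of the same libraries, which give the background, had 2 of 210 (0.952%) and 0 of 363 cells with an Ifng UMI. For 0 of 363 the exact binomial interval runs up to 1.01%, and 3 counts of 363 would be 0.826%. FL16 cells with an Ifng UMI had a median of 20 class I UMIs at E14.5 against 6 in those without, and 7.5 against 4 at E13.5. In P11 this held only at E13.5, with 33 against 19, while at E14.5 the medians were 42 and 42.5. The share with an Ifng UMI in P11 was 17.8% at E14.5 and 20.2% at E13.5, against 0.318% and 0.472% in LTi-like cells of the periphery.

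**Figure D4:**
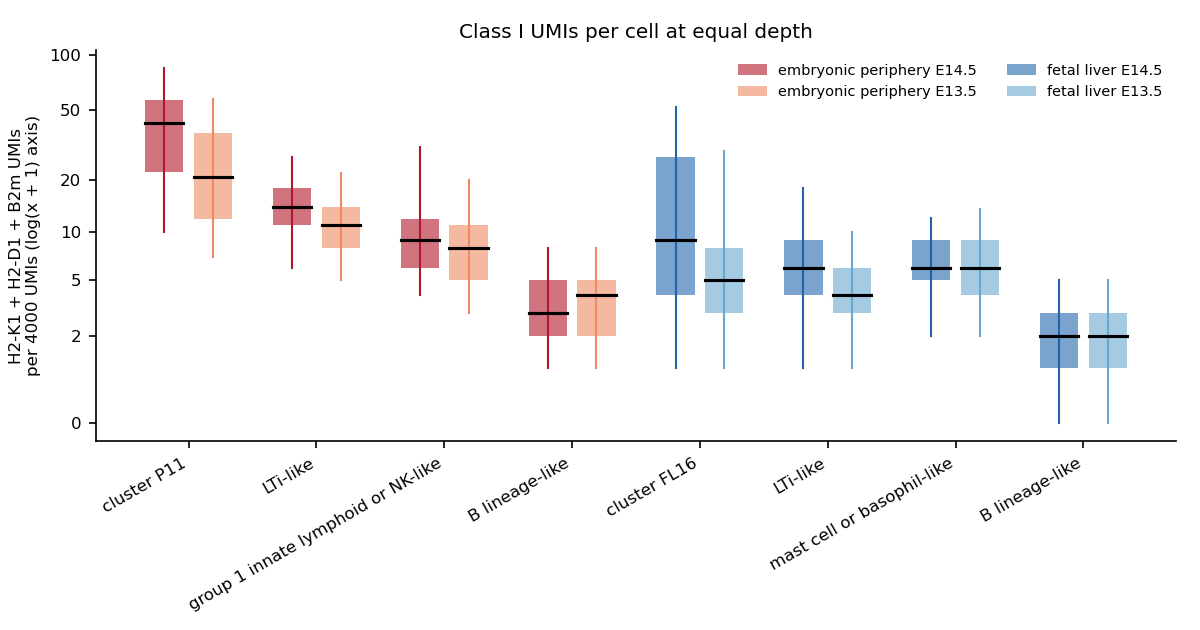
UMIs of H2-K1, H2-D1 and B2m per cell after thinning to 4000 UMIs, on a log(x + 1) axis. Boxes span the quartiles, the black line is the median and the thin line runs from the 5th to the 95th percentile of cells; FL16 at E14.5 spreads from 4 to 27 between its quartiles, and LTi-like cells of the periphery from 11 to 18.

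The first comparison of the design is between stages. In the periphery, 0 of 8 genes passed 0.5 on the log2 fold of E14.5 over E13.5 in either direction, where 7.65% of all measured genes were higher and 8.33% lower. Of the 8, 6 lay above 0, led by Tap2 at 0.47, H2-D1 at 0.41, B2m at 0.36 and Tapbp at 0.34. Tap1 was at 0.25, H2-K1 at 0.03, Psmb8 at -0.13 and Psmb9 at -0.48, and the median of the 8 was 0.30. Without taking off the all-gene median of 0.23, 4 of 8 passed 0.5 and Psmb8 lay at 0.09. With every class given equal weight, H2-K1 lay at -0.26, H2-D1 at 0.19 and B2m at 0.22, beside an LTi-like share of 58.6% at E14.5 and 37.0% at E13.5.

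Other proteasome genes of the periphery are given for comparison with Psmb8 and Psmb9. The list of Psmb10, Psme1, Psme2, Psme3 and Pomp, which build or activate the immunoproteasome, had 0 of 5 genes above 0 and 2 past -0.5 (median -0.49, Psme2 lowest at -0.69, Psme3 highest at -0.09), and 1 above 0 and 0 past -0.5 without taking off the all-gene median. Of the 11 other genes of the 20S core, 11 lay below 0 and 1, Psmb4, passed -0.5 (median -0.25), but without taking off the all-gene median 5 lay above 0 and the median was -0.02. Of the constitutive catalytic subunits Psmb5, Psmb6 and Psmb7, Psmb5 was lowest at -0.48 and Psmb7 lay above 0 at 0.08, with 534 CPM at E14.5 and 430 CPM at E13.5. The peptide loading list (Calr, Canx, Pdia3, Hspa5 and 5 others) had 0 of 8 measured genes higher and 1 lower past 0.5, with a median of 0.10. The interferon response list had 1 higher (Irgm1 at 0.70) and 6 lower of 13, with Isg15 lowest at -1.56 and a median of -0.29. Each of these counts stands beside the 7.65% and 8.33% of all genes.

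Within single classes of the periphery, H2-D1 and Tapbp each lay above 0 in 8 of 8 classes or clusters present at both stages, and also did so without taking off the all-gene median. Psmb9 lay above 0 in 1 of 8 and H2-K1 in 3 of 8, or in 2 and 4 without that step, while Psmb8 lay above 0 in 2 of 8, or in 6 without it. The UMI ratio of H2-D1 to H2-K1 was higher at E14.5 in 8 of 8, with 1.63 to 4.16 at E14.5 and 1.36 to 2.52 at E13.5, whereas in the fetal liver it was higher in 5 of 13. Monocyte or macrophage-like cells are among the 8 and had a median of 1498.5 UMIs per cell at E14.5 and 11568.5 at E13.5. The part of this depth gap in their values was not tested. Erythroid-like cells, also among the 8, had only 70 H2-D1 UMIs at E14.5 and 37 at E13.5. All classes of a stage come from 1 library, so the 8 are not replicates. A shift of a gene over a whole library would enter each of them. The share of all genes above 0 in 8 of 8 is not given here.

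In LTi-like cells of the periphery, 1 of 8 genes passed 0.5 (6.55% of all genes were higher and 6.51% lower). Tap2 stood at 75.4 CPM at E14.5 and 41.5 CPM at E13.5, a log2 fold of 0.56 with a counting interval of 0.44 to 0.67. Its partner Tap1 had 36.3 and 21.0 CPM (0.44) and H2-K1 had 329.7 and 382 CPM (-0.44). B2m was at 0.24, Tapbp at 0.26, H2-D1 at 0.08, Psmb8 at -0.24 and Psmb9 at -0.25. Tap2 was under 0.5 when cells were thinned to 4000 UMIs and when clusters were drawn at resolution 2. Most LTi-like cells at E14.5 came from clusters P1, P2 and P3 and most at E13.5 from P0 and P9, so stage and cluster coincide within the class. The class II list, the genes for presentation of outside antigens, had 4 of 5 measured genes higher at E14.5 in the same cells (median 0.78).

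In the fetal liver, 0 of 8 genes passed 0.5 between stages, where 3.55% of all genes were higher and 2.87% lower. All 8 lay between 0.04 and 0.39, with H2-D1 at 0.39, H2-K1 at 0.17, Tap2 at 0.15 and B2m at 0.04, and a median of 0.08. H2-D1 lay at 0.16 when every class had equal weight, but at 0.58 with cells thinned to 4000 UMIs and at 0.56 with equal weight per cell. The cell mix differed between the libraries, with 3332 B lineage-like cells of 10809 at E14.5 and 116 of 10259 at E13.5. These counts depend on the clustering, and were 4112 and 383 with another random seed and 3990 and 347 at resolution 2.

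In FL16, the fetal liver cluster with the highest levels, 7 of the 8 genes at 10 CPM or more at both stages were higher at E14.5 (6.57% of all genes were higher and 8.22% lower), and Tapbp stood at 0.47. Nlrc5 is not counted, since it reached 10 CPM only at E14.5. The log2 folds were 1.21 for H2-K1, 1.10 for H2-D1, 0.94 for B2m, 0.72 for Psmb9, 0.65 for Tap1 and 0.63 for Psmb8. Tap2 lay just past 0.5 at 0.50, and just under it at 0.49 without taking off the all-gene median. The lists that follow count genes at 10 CPM or more at either stage, so a gene that reached it only at E14.5 can enter. Of the other class I heavy chains, 6 of 7 measured in this way were higher past 0.5, H2-Q7 most at 1.43. The 20S proteasome core had 0 of 11 genes past 0.5 and a median of 0.01. Ifng had 220.0 CPM at E14.5 and 81.2 CPM at E13.5 in FL16 (1.39), and Irf1 had 171 and 111 CPM. The interferon response list had 5 of 12 higher and 0 lower (median 0.49).

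Heavy chains also passed 0.5 in LTi-like cells of the fetal liver and in P11. In LTi-like cells of the fetal liver H2-K1 stood at 405 CPM at E14.5 and 242 CPM at E13.5 (0.70) and H2-D1 at 443 and 283 CPM (0.61), where 5.68% of all genes were higher and 4.36% lower. In P11, H2-D1 was at 0.63, B2m at 0.51 and Tap2 at 0.88 (13.6% of all genes were higher and 11.6% lower), H2-K1 was at 0.38 and Psmb9 at -0.23. Psmb8 lay at -0.16 in P11, or at 0.06 without taking off the all-gene median, and at 0.63 in FL16. The difference between the clusters was not tested.

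**Figure D5:**
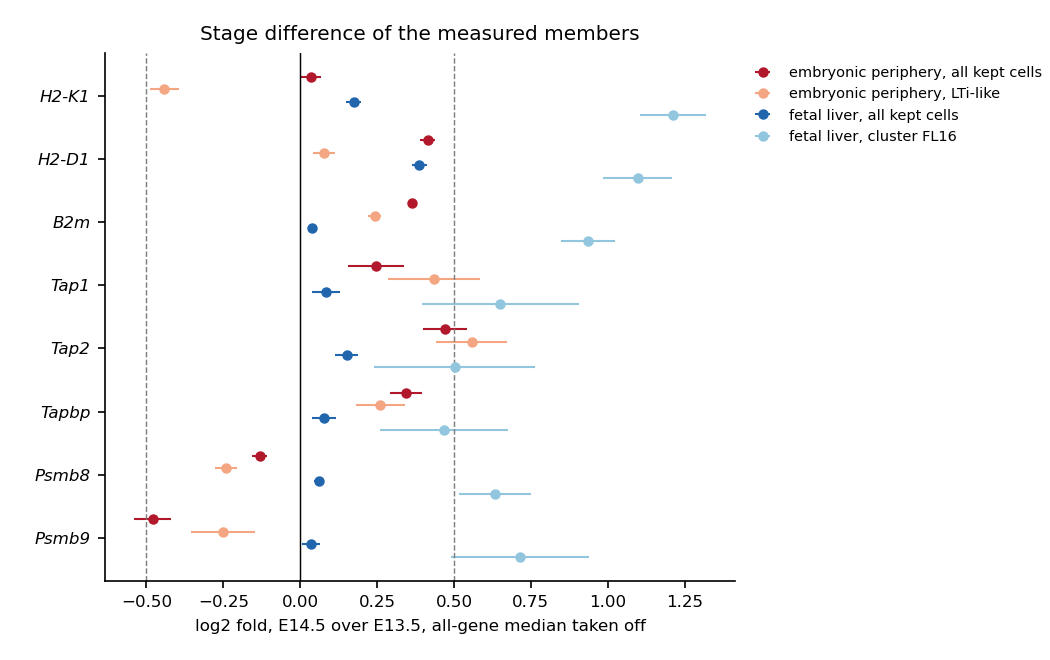
Log2 fold of E14.5 over E13.5 for the 8 measured genes, with the median over all genes taken off and counting intervals; dashed lines mark 0.5 in each direction. FL16 lies to the right for every gene, from 0.47 for Tapbp to 1.21 for H2-K1, and Psmb8 and Psmb9 lie left of 0 in both periphery groups, though Psmb8 in all kept cells is at 0.09 when the median is not taken off.

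The immunoproteasome subunits replace constitutive ones, Psmb8 for Psmb5 and Psmb9 for Psmb6. The UMI ratio of Psmb8 to Psmb5 was higher at E14.5 in 6 of 8 classes or clusters of the periphery and in 11 of 13 of the fetal liver. It was highest in P11, at 2.87 at E14.5 and 2.06 at E13.5. In the periphery a higher ratio need not mean more Psmb8, since Psmb5 was lower at E14.5 over all kept cells. Psmb8 itself lay above 0 in 2 of 8 there, or in 6 without taking off the all-gene median. The ratio of Psmb9 to Psmb6 was higher at E14.5 in 5 of 8 and 9 of 13. It was highest in FL16 at E14.5, at 0.654, against 0.406 in the same cluster at E13.5. For the third pair, Psmb10 to Psmb7, the ratio was higher at E14.5 in 0 of 8 classes of the periphery and 6 of 13 of the fetal liver. The classes of a tissue share the same library at each stage, so these counts are not counts of replicates. The share of other gene pairs that do so is not given here.

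The second comparison sets the periphery against the fetal liver, with the kit version coinciding. At E14.5, 7 of 8 genes were higher in the periphery past 0.5, where 26.5% of all genes were higher and 25.2% lower. At E13.5, 5 of 8 were higher, where 27.1% of all genes were higher and 25.1% lower. B2m was at 2.47 at E14.5 and 2.13 at E13.5, H2-D1 at 2.33 and 2.29, Tapbp at 1.61 and 1.33, H2-K1 at 1.36 and 1.48, and Psmb8 at 1.14 and 1.31. Tap1 was at 0.50 and 0.32 and Tap2 at 0.57 and 0.24. Without taking off the all-gene median, -0.17 at E14.5 and -0.41 at E13.5, Tap1 lay at 0.33 and -0.09 and Tap2 at 0.40 and -0.17. Psmb9 lay at -0.03 at E14.5 and 0.47 at E13.5, or at -0.20 and 0.06 without that step.

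Within LTi-like cells, CPM values with no median taken off gave the same tissue order for H2-D1 and B2m. H2-D1 stood at 758 CPM in the periphery against 443 CPM in the fetal liver at E14.5, and at 611 against 283 CPM at E13.5. B2m stood at 2558 against 792 CPM at E14.5 and 1842 against 560.5 CPM at E13.5. H2-K1 was the exception at E14.5, with 329.7 CPM in the periphery and 405 CPM in the fetal liver. Psmb9 was lower in the periphery at both stages, with 66.2 against 91.2 CPM at E14.5 and 67.1 against 78.8 CPM at E13.5.

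Some reads of these genes could belong to neighbours or relatives. In the annotation, Tapbp and Zbtb22 share 149 exon bases on 1 strand, and Tap1 and Psmb9 share 212 on opposite strands. Over the last 500 bases of the transcripts, 9.60% of the 50-base stretches of H2-K1 and 8.92% of those of H2-D1 were found in another gene, among them each other, against 0% of those of B2m, Tap2, Psmb8, Psmb9 and Nlrc5. Whether counting used strand is not given in the sources used here, so reads of Gm20496, antisense to Psmb8 and Tap2, cannot be told from theirs if it did not.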

How the data were processed

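Gene by barcode matrices of UMI counts, deposited as raw counts, were read for the 4 libraries. Per the submitters' processing notes the authors used Cell Ranger 3 with mm10, and the file headers name 3.0.0 for the fetal liver and 3.0.1 for the periphery; the sort and kits are per the labels' protocols. Groups are stage and tissue as labelled, 1 library each, so there was no test. The 9 genes and all lists were chosen with earlier results of these data known.

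Barcodes with under 500 genes or over 10% mitochondrial UMIs were left out, as were barcodes marked by Scrublet as doublets (7.63%, 3.59%, 3.22% and 3.25% in fetal liver E14.5, fetal liver E13.5, periphery E14.5 and periphery E13.5). In the periphery the automatic threshold was replaced by the top scores up to an expected rate of 0.8% per 1000 barcodes. Feature lists held 31053 features in the fetal liver and 28427 in the periphery, joined by gene identifier.

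Each tissue was clustered over both stages (scanpy 1.11.5, leidenalg 0.10.2: 2000 variable genes, 30 components, 15 neighbours, resolution 1, seed 1), without the members and listed genes. A cluster was named where at least 3 and over 50% of a type's markers were detected and the mean z-score of its markers was 0.5 or more. Detected means 20 CPM or more and a log2 level at least 1 above the gene's lower quartile over clusters. A marker also had to be among the 10 leading genes, or 75% of markers had to be detected. No other type could have more markers among the leading genes. Shallow clusters with no marker of the type among these genes stayed unnamed. The z-score and 75% thresholds were set after clusters had been seen.

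Folds are log2((CPM + 5)/(CPM + 5)) of summed UMIs, less the median over genes at 10 CPM or more in either group. The genes to be named were all 9 members, the ends of each list and the 5 genes most like the members; leading genes of clusters, Ifng and Irf1 were named after values had been seen, and 1 gene that the rule names is not reported here. Intervals cover counting error only. The fold calculation was tested on simulated counts. Other settings tried were the pseudocount, the minimum, centring, thinning, weighting of cells or classes, doublets, barcodes, features and clustering. Sequences and positions are from RefSeq and the GRCm38 annotation; Python 3.11.15, numpy 2.4.6, scipy 1.17.1, pandas 2.3.3, biopython 1.88 and matplotlib 3.10.9 were used.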

Additional observations from a re-analysis of the deposited data

Results flagged for a closer look

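Psmb8 and Psmb9 lay on opposite sides of 0 in the 2 tissues under the same stage comparison, as log2 folds of E14.5 over E13.5. Psmb8 was at -0.132 in the periphery and 0.0597 in the fetal liver, but at 0.09 and 0.03, on the same side, without taking off the all-gene median. Psmb9 was at -0.480 in the periphery and 0.0357 in the fetal liver, and at -0.25 and 0.0045 without that step. With 1 library per group the difference between the tissues was not tested.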

How the results depend on the processing

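Counts of genes past 0.5 changed as follows, where the count as reported is given first. In the fetal liver between stages, 0 higher became 1 with equal weight per cell and 1 with cells thinned to 4000 UMIs, H2-D1 in both. In the periphery between stages, 0 higher became 1 with equal weight per cell, 1 with thinned cells, 4 with no minimum CPM and 4 when the all-gene median was not taken off, and 0 lower became 1 without ribosomal and mitochondrial genes and 1 with a pseudocount of 1 CPM. In LTi-like cells between stages, 1 higher became 0 at resolution 2, 0 with thinned cells (Tap2 at 0.498) and 2 when the median was not taken off, and 0 lower became 1 at resolution 2. For LTi-like against other cells at E14.5, 0 higher became 1 with seed 2, and 0 lower became 1 with seed 2, 1 with listed genes kept and 1 with clusters P4 and P5 added, an alternative chosen after seeing the data. At E13.5 that addition turned 2 higher into 4. The causes were not tested. Tissue counts stayed within 1.5 times. Over all genes, medians and counts, 252 values under another setting stayed within the tolerance set for them (for a gene, the counting interval of its fold) and 204 moved further, while none past 0.5 turned its direction.

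No paired analysis was possible because each group is 1 library and no test was made, and leaving out a replicate was likewise not run. Nlrc5, with 13 to 64 UMIs per library, is the value depth limits most.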
